A study of Mus musculus with 12 samples.

Results

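Protamines and transition proteins were described in mouse testis RNA on 2-colour cDNA arrays, from all probes whose platform gene symbol was Prm1, Prm2, Tnp1 or Tnp2. These were 5 of 20355 probes: 2 for Prm2 and 1 for each of Prm1, Tnp1 and Tnp2. All 5 had a value on all 12 arrays, and all 4 genes passed the filter on missing values that left 14729 features, a feature being a named gene or an unnamed probe.

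The study set testis RNA of wildtype mice, of Wobbler mice (wr/wr in the series' design) and of Wobbler modifier mice (wr/mod) against each other in all 3 pairs, with 4 arrays per pair. Each channel held RNA pooled from 3 males on a Castaneus background, so the spread between animals was not measured. On replicates 3 and 4 of each pair the dyes were exchanged. Age is not given in the labels, nor what the modifier is, and no label says whether the arrays of a pair were made from separate pools, so p-values measure a spread between arrays that may be technical. Wobbler is a recessive mutation of Vps54, a subunit of a complex that tethers vesicles at the Golgi, and homozygous males are infertile.

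In maturing spermatids the nucleus gives up its histones. Transition proteins (Tnp1, Tnp2) take their place for a short time, and protamines (Prm1, Prm2), small arginine-rich proteins, then pack the DNA of the sperm head. Their genes are transcribed in round spermatids, and the mRNAs are stored and translated later, in elongating spermatids. Mice short of either protamine make defective sperm.

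Prm1, Prm2 and Tnp2 lie side by side with Prm3 on chromosome 16 in the order Tnp2, Prm3, Prm2, Prm1 among coding genes, whereas Tnp1 lies on chromosome 1. The 250 bases before each start site are shown because these 4 genes had like ratios in the modifier comparisons and are known to be switched on at the same step. The sequences are RefSeq's, build GRCm38.p6, minus strand, written 5′ to 3′: Prm1 at chr16:10796824-10797073, Prm2 at chr16:10792106-10792355, Tnp1 at chr1:73015900-73016149 and Tnp2 at chr16:10788656-10788905. Capitals mark TGANNTCA, a loose form of the cAMP response element to which the spermatid activator CREM binds, and the TATA box letters TATAAA or TATATA, each searched on both strands.

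Prm1: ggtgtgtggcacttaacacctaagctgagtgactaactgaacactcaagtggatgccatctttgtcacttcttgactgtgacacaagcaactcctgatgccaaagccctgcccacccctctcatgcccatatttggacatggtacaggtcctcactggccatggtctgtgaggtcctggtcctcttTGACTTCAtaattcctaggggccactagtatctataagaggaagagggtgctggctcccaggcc
Prm2: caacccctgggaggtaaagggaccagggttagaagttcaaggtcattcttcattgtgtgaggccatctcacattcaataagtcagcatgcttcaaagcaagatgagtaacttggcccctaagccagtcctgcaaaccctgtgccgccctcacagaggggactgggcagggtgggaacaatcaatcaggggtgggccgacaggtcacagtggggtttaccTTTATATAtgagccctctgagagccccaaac
Tnp1: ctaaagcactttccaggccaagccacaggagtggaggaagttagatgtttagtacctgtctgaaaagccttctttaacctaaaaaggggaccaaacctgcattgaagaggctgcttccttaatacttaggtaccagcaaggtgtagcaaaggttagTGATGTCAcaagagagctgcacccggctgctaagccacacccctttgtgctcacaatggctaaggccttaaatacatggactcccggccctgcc
Tnp2: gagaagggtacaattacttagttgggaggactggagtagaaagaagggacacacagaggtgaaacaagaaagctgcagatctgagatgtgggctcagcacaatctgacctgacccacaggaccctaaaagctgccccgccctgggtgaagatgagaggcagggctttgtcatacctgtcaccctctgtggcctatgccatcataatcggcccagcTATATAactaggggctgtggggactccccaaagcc

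TGANNTCA was present at positions -64 to -57 of Prm1 (TGACTTCA) and at -94 to -87 of Tnp1 (TGATGTCA), counted from the start site, and among 32851 mouse windows of this length 11.9% held it. The window of the neighbour Prm3, not shown, also held it, at -60 to -53 (TGAGGTCA), and the ratios of Prm3 are given below. In Prm2 the capitals join TATAAA read on the other strand at -31 to -26 with the overlapping TATATA at -29 to -24. In Tnp2 they are TATATA at -35 to -30. TATAAA was held by 12.4% of all windows and TATATA by 5.25%. The strict element TGACGTCA (1.55% of windows) and its part TGACG (17.8%) were not in these 4 windows. A match in letters is a description of the sequence and not a binding site.

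The deposited values were log2 ratios of the channels, without intensities. With the sign turned on replicates 3 and 4, every ratio is read as named, for example modifier RNA over wildtype RNA. The reading comes from the titles of the arrays and from the usual Cy5-over-Cy3 order, so "higher" and "lower" are likely directions rather than settled ones. On the modifier arrays the members themselves turned with the dyes: all 40 probe values on 8 arrays were below 0 after the turn, so that every deposited value had changed its sign between the dye orientations. Array medians after the turn lay between -0.22 and 0.18 and array SDs between 0.62 and 1.61, the widest being replicate 2 of Wobbler over wildtype. No level of any testis marker can be read from ratios, so the labelled tissue could not be checked against its markers.

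How the testis of Wobbler modifier mice differed from wildtype testis was asked first. Transcripts of all 4 genes were lower with the modifier, by 2.02-fold to 3.04-fold. Prm2 was lowest. In bulk testis RNA, fewer spermatids and less of the transcript per spermatid cannot be told apart.

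Prm2, the protamine that is made as a longer precursor and then trimmed, had log2 ratios of -1.55, -1.39, -1.84 and -1.62 on replicates 1 to 4, each the mean of its 2 probes. Prm1, the shorter protamine found in all mammals, was at -1.06, -1.13, -1.40 and -1.0. Both lay below 0 on every array, and the lowest value of each was on replicate 3. The fitted log2 ratios were -1.60 ± 0.21 (SE, n = 4 arrays) for Prm2 and -1.15 ± 0.16 (SE, n = 4 arrays) for Prm1, with limma adjusted p of 0.00867 and 0.00980.

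Tnp1, which loosens nucleosomes ahead of the protamines, was at -0.89, -0.94, -1.53 and -1.05. Tnp2, a zinc-binding transition protein, was at -1.05, -0.96, -1.11 and -0.93. Again every array was below 0, and Tnp2 kept within a narrower range than Tnp1. Fitted values were -1.10 ± 0.13 (SE, n = 4 arrays; limma adjusted p 0.00460) for Tnp1 and -1.01 ± 0.13 (SE, n = 4 arrays; limma adjusted p 0.00670) for Tnp2. Counted from the lowest ratio among the 14729 features, Prm2 was at rank 21, Prm1 at 83, Tnp1 at 89 and Tnp2 at 125.

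Thus 4 of 4 members were lower, where 0.699% of all features were called lower and 0.0339% higher (an adjusted p under 0.05 in a limma fit over all features). Their median log2 ratio was -1.13, against 0.01 over all features. The calls needed nearly all arrays: without replicates 1, 2, 3 and 4 of this comparison 0, 1, 0 and 3 members passed, and 1 passed when these 4 arrays were fitted alone. The ratios themselves moved little under the same omissions, between -1.74 and -1.45 for Prm2 and between -1.09 and -0.96 for Tnp2.

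The next question was how modifier testis differed from Wobbler testis without the modifier. The same transcripts were lower by 1.69-fold to 2.29-fold, and Prm1, Tnp1 and Tnp2 passed the test. Both of these comparisons contain modifier RNA, so they are not independent of each other.

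Tnp1 was at -1.01, -0.68, -1.32 and -1.53 on replicates 1 to 4, with a fitted ratio of -1.13 ± 0.13 (SE, n = 4 arrays) and a limma adjusted p of 0.00673, rank 8 of all features by p. Tnp2 was at -0.82, -0.68, -0.79 and -0.76, the tightest set among the members, with -0.76 ± 0.13 (SE, n = 4 arrays) and a limma adjusted p of 0.0361. Prm1 was at -1.09, -1.13, -0.51 and -1.09, so that replicate 3 stood apart at less than the others' distance from 0. Its fitted ratio was -0.95 ± 0.16 (SE, n = 4 arrays; limma adjusted p 0.0361).

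Prm2 was at -1.20, -1.08, -1.28 and -1.23, all below 0 and close together. Its fitted ratio of -1.20 ± 0.21 (SE, n = 4 arrays) just missed the threshold, with a limma adjusted p of 0.0507. The fit takes 1 spread per gene from all 12 arrays, and for Prm2 the SD over 4 arrays was 0.76 in Wobbler over wildtype, against 0.19 and 0.08 in the modifier comparisons. With a dye term of its own for each comparison, an alternative chosen after the data were seen, the SE of Prm2 was 0.10 and the adjusted p 0.0137, and all 4 members passed.

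Here 3 of 4 members were called lower, where 0.299% of all features were called lower and 0.115% higher. The members' median was -1.04, against 0.08 over all features. With arrays centred on their medians all 4 were called, while 0 were called without a dye term and 0 when these 4 arrays were fitted alone. Without replicates 1 to 4 of this comparison 0, 1, 2 and 1 members passed. Leaving out any array of modifier over wildtype left 1, as did leaving out replicate 4 of Wobbler over wildtype, although these omissions did not touch the ratios.

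**Figure D1:**
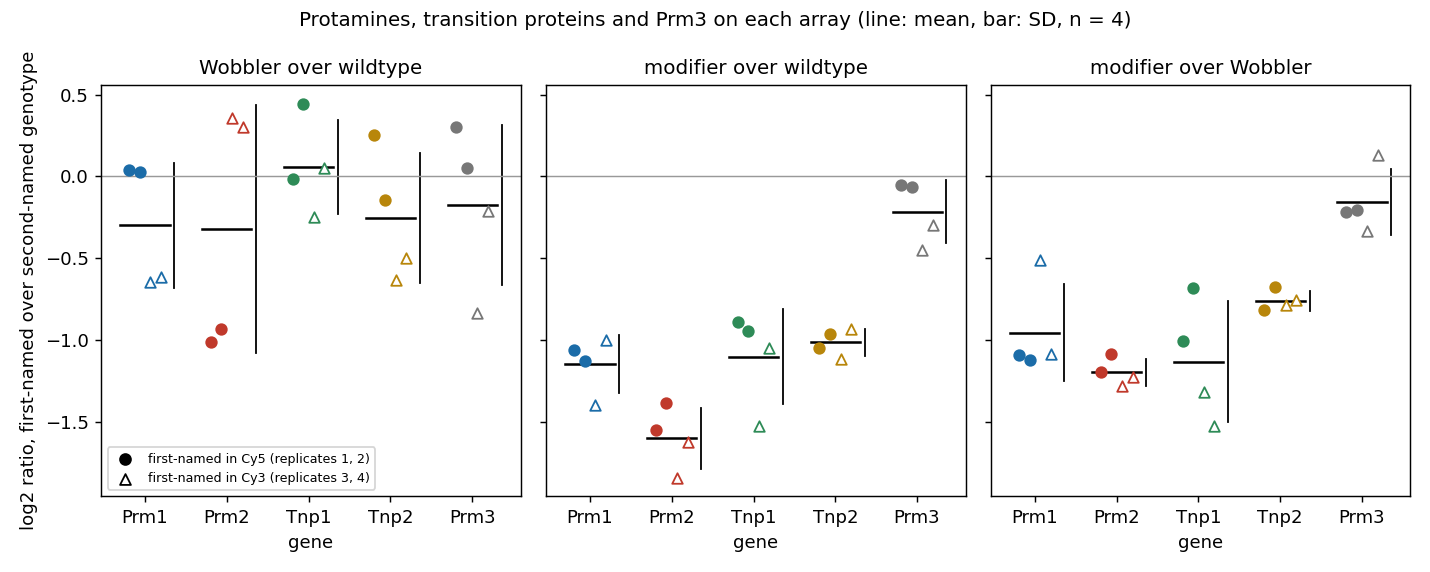
Log2 ratios, first-named over second-named genotype, of Prm1, Prm2, Tnp1, Tnp2 and the neighbouring gene Prm3 on each of the 12 arrays, with 1 panel per comparison. Filled circles are replicates 1 and 2, open triangles the dye-exchanged replicates 3 and 4, horizontal lines means and vertical bars SDs (n = 4). In both modifier comparisons the 4 genes lie between -1.84 and -0.51 on all 8 arrays, and Prm3 lies above them on each.

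The Wobbler genotype alone was compared with wildtype in the remaining pair. Here 0 of 4 members passed, where 0.183% of all features were called lower and 0.122% higher. An unadjusted p under 0.05 in limma was reached by 0 members and by 2310 of 14729 features. None of the 26 alternative settings called a member. With a dye term for each comparison (the alternative chosen after the data were seen) the unadjusted p were 0.0118 for Prm2, 0.0460 for Prm1, 0.0475 for Tnp2 and 0.685 for Tnp1, so that 3 members were under 0.05, as were 2347 of 14729 features. The adjusted p in limma were 0.213 or more. With the common dye term the 95% intervals were wide: -0.65 to 0.05 for Prm1, -0.80 to 0.15 for Prm2, -0.23 to 0.35 for Tnp1 and -0.54 to 0.03 for Tnp2.

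The values of this pair split by dye orientation. Prm2 was at -1.01 and -0.94 with Wobbler RNA in Cy5 and at 0.36 and 0.31 with it in Cy3. Prm1 did the opposite, at 0.04 and 0.03 in the first orientation and at -0.65 and -0.61 in the second. The deposited values of both protamines therefore kept their sign when the dyes were exchanged, unlike on the modifier arrays. Those of the neighbour Prm3 also kept their sign in Wobbler over wildtype, with means of 0.18 and -0.52 in the 2 orientations after the turn.

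Tnp2 was at 0.25, -0.14, -0.63 and -0.50 on replicates 1 to 4, again higher with Wobbler RNA in Cy5. Tnp1 was at -0.02, 0.45, -0.25 and 0.05, with no clean split. The fitted ratios were -0.30 ± 0.16 for Prm1, -0.32 ± 0.21 for Prm2, 0.06 ± 0.13 for Tnp1 and -0.26 ± 0.13 for Tnp2 (SE, n = 4 arrays each). These sizes are below those of the modifier comparisons for every member. They moved with single arrays: Prm2 to -0.12, -0.15, -0.52 and -0.50 without replicates 1, 2, 3 and 4, Tnp2 to -0.41 without replicate 1 and -0.16 without replicate 3, and Prm1 to -0.20 without replicate 3. Tnp1 went to 0.16, -0.0082, 0.09 and -0.0187 without replicates 1 to 4. With array weights Prm2 was at -0.07.

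With a dye term for each comparison (chosen after the data were seen), that term was -0.65 ± 0.10 (SE) for Prm2 in Wobbler over wildtype and 0.33 ± 0.13 (SE) for Prm1. The median over all features was 0.17, so the sign of Prm2 was opposite to that of all features together, and the terms of Prm1, Tnp1 and Tnp2 had the common sign. Its limma adjusted p was 0.0815, and 0 of 4 members passed this test of the dye (3 had an unadjusted p under 0.05, as had 2588 of 14729 features), where 0.0951% of all features passed. The dye terms of Prm2 were 0.13 against wildtype and 0.06 against Wobbler on the modifier arrays. Both probes of Prm2 showed the split, the one numbered 9923 with -1.06 and 0.44 as means of the orientations and the one numbered 12403 with -0.89 and 0.22.

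**Figure D2:**
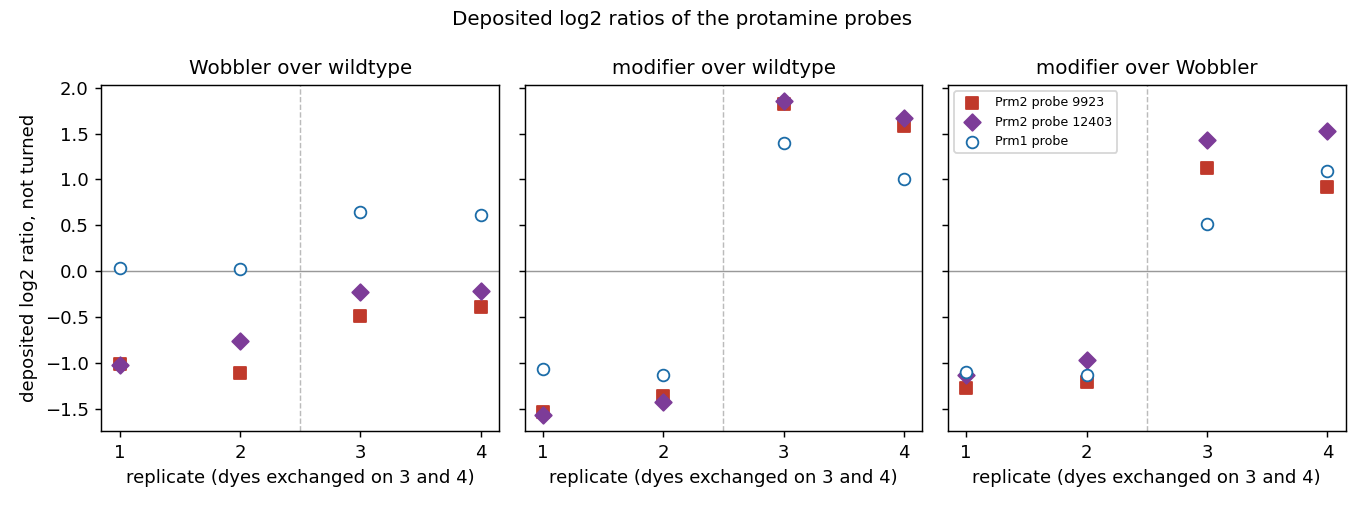
Deposited log2 ratios, before any array was turned, of the 2 Prm2 probes and the Prm1 probe against replicate number, with 1 panel per comparison and the dye exchange at the dashed line. In both modifier comparisons every point changes sign across the line. In Wobbler over wildtype the Prm2 points stay below 0 and the Prm1 points above it.

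Outside this pair the Prm2 probes gave like values. They averaged -1.58 ± 0.19 (SD, n = 4 arrays) and -1.63 ± 0.18 (SD, n = 4 arrays) against wildtype, and -1.13 ± 0.15 (SD, n = 4 arrays) and -1.26 ± 0.26 (SD, n = 4 arrays) against Wobbler. The largest gap between them on a modifier array was 0.61. Fitted as features of their own, both passed in modifier over wildtype (limma adjusted p 0.0110 and 0.00815). In modifier over Wobbler probe 12403 passed (limma adjusted p 0.0333) and probe 9923 did not (0.0634).

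Since the 3 pairs form a loop, each ratio can also be reached indirectly through the other 8 arrays. For all 4 members the indirect value differed from the direct one by 0.11 or less. Modifier over wildtype minus modifier over Wobbler, which is Wobbler over wildtype by the indirect route, was -0.19 ± 0.22 (SE) for Prm1, -0.41 ± 0.30 (SE) for Prm2, 0.03 ± 0.18 (SE) for Tnp1 and -0.25 ± 0.18 (SE) for Tnp2. In this difference 0 of 4 members passed in limma, 0 at an unadjusted p under 0.05, as did 0% of all features, of which 453 had an unadjusted p under 0.05.

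The loop differences, taken as indirect minus direct for Wobbler over wildtype, were 0.11 for Prm1, -0.08 for Prm2, -0.03 for Tnp1 and 0.0018 for Tnp2. The difference is the same for modifier over Wobbler and has the opposite sign for modifier over wildtype, where Prm1 was at -1.25 by the indirect route and -1.15 directly. The 95% intervals of the loop differences reach from -0.50 to 0.72, from -0.91 to 0.74, from -0.53 to 0.47 and from -0.49 to 0.49. None of the 4 passed (limma adjusted p between 0.917 and 0.998, 0 at an unadjusted p under 0.05), and 0.0272% of all features did (1024 at an unadjusted p under 0.05).

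Whether modifier over wildtype differed from Wobbler over wildtype was tested on the difference itself. It was -1.16 ± 0.18 (SE) for Tnp1, which passed with a limma adjusted p of 0.0287. For Prm2 it was -1.28 ± 0.30 (SE), for Prm1 -0.85 ± 0.22 (SE) and for Tnp2 -0.76 ± 0.18 (SE), with limma adjusted p of 0.116, 0.157 and 0.116. So 1 of 4 members passed, where 0.407% of all features were called lower. All 4 had an unadjusted p under 0.05 in limma, as had 1838 of 14729 features. The difference is also modifier over Wobbler by the indirect route. Wildtype RNA is in both terms.

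**Figure D3:**
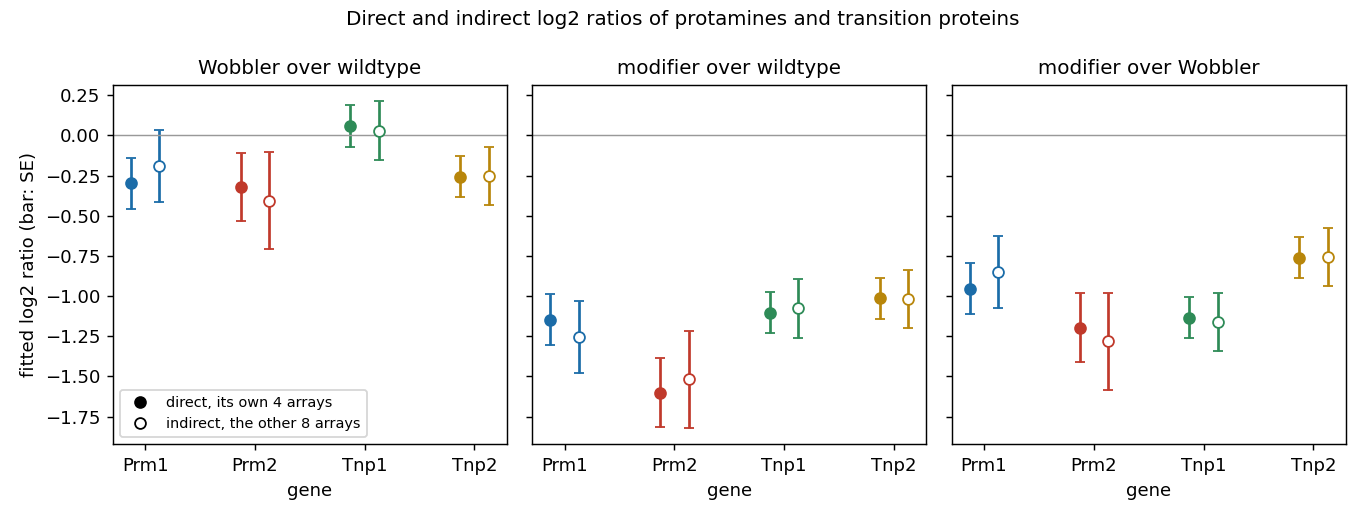
Fitted log2 ratios of Prm1, Prm2, Tnp1 and Tnp2 with SE bars, 1 panel per comparison, from the comparison's own 4 arrays (filled) and by the indirect route through the other 8 arrays (open). Direct and indirect points differ by at most 0.11.

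Among the members, Prm2 was the lowest in modifier over wildtype on every array. Prm1 minus Prm2 was 0.46 ± 0.15 (SD, n = 4 arrays), with a range of 0.26 to 0.63. Prm2 minus Tnp1 was -0.50 ± 0.15 (SD, n = 4 arrays) and Prm2 minus Tnp2 -0.59 ± 0.15 (SD, n = 4 arrays). Prm1, Tnp1 and Tnp2 lay close together: Prm1 minus Tnp1 was -0.04, with 2 of 4 arrays below 0, and Tnp1 minus Tnp2 was -0.09, also with 2. Prm1 minus Tnp2 was -0.13 ± 0.12 (SD, n = 4 arrays), from -0.29 to -0.01, below 0 on 4 of 4.

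In modifier over Wobbler the order was less clear. Prm2 minus Tnp2 was -0.44 ± 0.05 (SD, n = 4 arrays), below 0 on 4 arrays, and Tnp1 minus Tnp2 was -0.37 ± 0.34 (SD, n = 4 arrays), also below 0 on 4. Prm2 and Tnp1 differed by -0.06 ± 0.30 (SD, n = 4 arrays), less than their spread. The exact two-sided sign-flip permutation test of 4 arrays cannot go below p = 0.125. Over the 18 pairs tested the smallest Benjamini-Hochberg adjusted p was 0.375, so these differences are descriptions of size.

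Prm3 lies between Tnp2 and Prm2 and encodes an acidic protein of the spermatid cytoplasm. It had ratios of -0.05, -0.06, -0.45 and -0.30 against wildtype and of -0.22, -0.20, -0.33 and 0.13 against Wobbler in the modifier comparisons. It was above all 4 members on each of the 8 modifier arrays, by 0.18 to 0.89 over the nearest of them. On the arrays without modifier RNA it was at 0.30, 0.05, -0.84 and -0.21. It did not pass in limma in any comparison.

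Of the 21 other coding genes within 5 places of a member in the gene order, Prm3 included, 12 were measured. None passed in any comparison, where 0.183% (Wobbler over wildtype), 0.699% (modifier over wildtype) and 0.299% (modifier over Wobbler) of all features were called lower. In that order 4, 0 and 0 of the 12 had an unadjusted p under 0.05 in limma. So had 2310, 1080 and 1694 of 14729 features. Against wildtype the modifier ratios of the 12 lay between -0.26 and 0.35 and their median was -0.04. Socs1, a brake on cytokine receptors and the coding gene next to Tnp2, was at 0.21 there, and Litaf, of the endosome membrane, at 0.35. Near Tnp1, whose adjacent coding genes Igfbp5 and Tns1 had no named probe here, Igfbp2, which binds insulin-like growth factors, was at -0.26 and Rpl37a, of the large ribosomal subunit, at 0.17. Clec16a was at 0.07, Snn at -0.15, Txndc11 at 0.03, Zc3h7a at -0.02, Smarcal1 at -0.06, Rufy4 at -0.14 and Arpc2 at -0.26 in the same comparison. Against Wobbler their median was -0.05, and the lowest was Litaf at -0.63 ± 0.44 (SE, n = 4 arrays). Without the modifier Litaf was at 1.57 and Rpl37a at 1.35 in Wobbler over wildtype, and neither passed.

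A list of genes that take part in the exchange of histones for protamines held 27 genes, of which 20 were tested, Prm3 among them. Against wildtype, with the modifier, 1 was lower (0.699% of all features were), 0 were higher and 19 did not pass, with a median of -0.16. The 1 gene was H1f7, a linker histone of elongating spermatids needed for nuclear condensation, at -0.92 ± 0.15 (SE, n = 4 arrays; limma adjusted p 0.0247), and in modifier over Wobbler it was at -0.51. In that comparison 0 of 20 passed (3 at an unadjusted p under 0.05 in limma), with a median of 0.01.

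The linker histone of meiotic and early haploid cells, H1f6, was lower in Wobbler over wildtype at -1.14 ± 0.13 (SE, n = 4 arrays; limma adjusted p 0.00456). There 19 of 20 did not pass, where 0.183% of all features were called lower. With the modifier H1f6 was at -0.00375 against wildtype and 0.13 against Wobbler, values that do not close the loop with its direct ratio. The other genes named from this list did not pass. The ubiquitin ligase Rnf8 was at -0.46 and the kinase Camk4, which phosphorylates protamine 2, at -0.46 in Wobbler over wildtype. The acetyl-histone reader Brdt was at -0.58 in modifier over Wobbler, with replicate 4 alone at -1.73. In the same comparison Dot1l, a histone methyltransferase, was at -0.69 and Epc1, of an acetyltransferase complex, at 0.25. The acetyltransferase Kat8 was at -0.42 in modifier over wildtype. The histones H2ax and H3f3a were at -0.28 and -0.23 in modifier over wildtype, and H3f3b at 0.41 in Wobbler over wildtype.

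Genes known to act on the transcripts of protamines and transition proteins showed no call. Of 21 on the list 11 were tested, and 0 passed in any comparison. An unadjusted p under 0.05 in limma was reached by 2 in Wobbler over wildtype, 4 with the modifier against wildtype and 3 against Wobbler. In that order 2310, 1080 and 1694 of 14729 features reached it. Of all features 0.183%, 0.699% and 0.299% were called lower and 0.122%, 0.0339% and 0.115% higher, in the same order. The median of the 11 genes was -0.26 with the modifier against wildtype and -0.15 against Wobbler, with 7 and 8 of their ratios below 0. Sox30, a transcription factor of round spermatids, was at -0.61 and -0.25 in these comparisons. Papolb, the testis poly(A) polymerase, was at -0.47 and -0.36, and Paip2, an inhibitor of the poly(A)-binding protein that is needed in spermatids, at -0.71 and -0.54. Ddx25, a helicase that carries spermatid mRNAs, was at -0.28 in modifier over wildtype. Pabpc1, the poly(A)-binding protein, was above 0, at 0.11 in the same comparison, 0.37 in modifier over Wobbler and 0.65 in Wobbler over wildtype. On the latter arrays Srsf1, a splicing factor, was at -1.03, Paip2b, a relative of Paip2, at 1.09, and Piwil1, of the piRNA pathway, at 0.23. The activator Crem, read by 1 probe, was at 1.13 ± 0.61 (SE) in modifier over wildtype, from -0.59 to 2.22 on single arrays. It was at -0.70 in modifier over Wobbler and -0.93 in Wobbler over wildtype (named outside the rule, after its value was seen). These ratios do not close the loop, so no direction of Crem is read from them.

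Other transcripts of late spermatids had ratios on the same side as the members. All 17 tested of 20 listed had ratios below 0 in both modifier comparisons, with medians of -0.74 against wildtype and -0.52 against Wobbler (0.01 and 0.08 over all features). On every array with a value 13 and 10 of the 17 were below 0, where 10.4% and 6.80% of all features were. In modifier over wildtype 5 were lower, 0 higher and 12 did not pass, and in modifier over Wobbler 2 were lower and 15 did not pass. Of all features 0.699% and 0.299% were called lower in these comparisons. In Wobbler over wildtype 0 of 17 passed (4 at an unadjusted p under 0.05 in limma), with a median of 0.06. The list's direction in these samples was known when it was chosen, so it is no independent evidence.

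Smcp, a structural protein around the mitochondria of sperm, was at -1.12 against wildtype and -0.86 against Wobbler. Oaz3, the spermatid antizyme of ornithine decarboxylase, was at -1.28 and -0.90. Both passed in both. Cypt1, a spermatid gene, was at -1.21 and Ropn1, of the sperm tail sheath, at -0.88 against wildtype, where both passed, as did Gsg1, a germ cell gene, at -0.87 (named outside the rule, after its value was seen). Against Wobbler Cypt1 was at -0.90 and Ropn1 at -0.72, and neither passed. On the arrays of Wobbler over wildtype Smcp was at -0.42, the kinase Tssk3 at 2.55, Tcp11 at -0.64 and Akap4, of the sperm tail sheath, at 0.48, and none passed. Whether fewer late spermatids had part in the members' ratios was not tested.

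**Figure D4:**
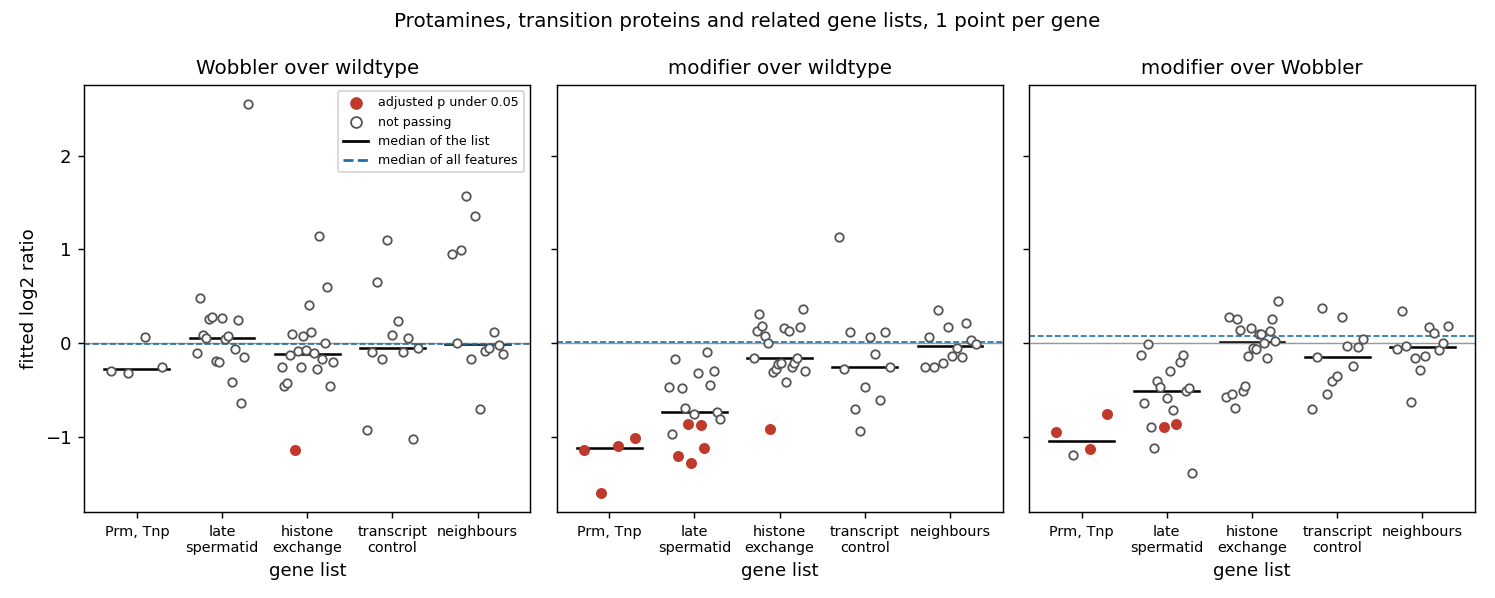
Fitted log2 ratios, 1 point per gene, of the 4 protamine and transition protein genes and of 4 related lists, with 1 panel per comparison. Red points passed the test, black lines are list medians and the dashed line is the median of all features. The late spermatid genes lie below 0 in both modifier comparisons, with medians of -0.74 and -0.52, while the neighbours of the members have medians of -0.04 and -0.05.

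Markers of other cell types of the testis were read in the same fit. All 8 Leydig genes tested were below 0 in both modifier comparisons, with medians of -0.70 against wildtype and -0.50 against Wobbler. In the first 2 of 8 were lower and in the second 1 of 8, where 0.699% and 0.299% of all features were called lower. Cyp17a1, an enzyme of androgen synthesis, passed in both, at -2.03 and -1.39. Ephx1, a microsomal epoxide hydrolase, passed against wildtype at -0.77 (limma adjusted p 0.0172) and was at -0.49 against Wobbler.

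Of the 5 meiotic genes tested, Syce2, of the synaptonemal complex, was lower at -0.94 against wildtype and was at -0.65 against Wobbler, where 0 passed in limma (1 at an unadjusted p under 0.05). The list's medians were -0.24 and 0.17, with the cohesins Stag3 at -0.28 against wildtype and Rec8 at 0.20 against Wobbler. Tyrobp, a macrophage adaptor, was lower at -0.68 against wildtype among 8 macrophage genes and was at -0.39 against Wobbler, where 0 passed in limma (1 at an unadjusted p under 0.05). Lyz2, lysozyme, was at -0.26 and -0.37, and the list's medians were -0.06 and -0.17.

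The remaining lists had 0 passing in limma in both modifier comparisons. Acrosome and round spermatid genes had medians of -0.19 and -0.08 over 6 genes (1 and 2 at an unadjusted p under 0.05), with 5 and 3 of the 6 below 0. Among them Spaca1, of the acrosome membrane, was at -0.51 and -0.33 and Acrv1, of the acrosome matrix, at -0.58 and -0.66. Spermatogonia genes had medians of 0.18 and 0.29 over 8 (0 and 1 at that p), with the growth factor receptor Gfra1 at 0.52 in each, Lin28a at 0.32 against wildtype and Ddx4 at 0.30 against Wobbler. Sertoli genes had medians of -0.18 and -0.02 over 10 (4 and 2 at that p). Among them Clu, clusterin, was at -0.37 against wildtype, and the transcription factors Gata1, at 0.44 and 0.69, and Sox9, at 0.49 against Wobbler, were above 0. The 3 epididymis genes had medians of -0.23 and -0.03 (0 and 1 at that p), with Defb20 at -0.46 and -0.90 and Lcn5 at -0.23 and 0.13. The 2 blood genes had -0.16 and -0.03 (0 at that p), with Hba-a1 at -0.31 and 0.0040 and Alas2 at 0.0010 and -0.07.

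Without modifier RNA, in Wobbler over wildtype, 0 genes of these cell type lists passed in limma, with 2 Sertoli, 2 spermatogonia, 1 Leydig and 1 meiotic gene at an unadjusted p under 0.05. The genes of smallest p there were Hook1 (0.29) and Acrv1 (-0.58) of the acrosome list, Smc1b (0.52) and Rec8 (-0.31) of meiosis, Ddx4 (0.49) and Gfra1 (0.73) of spermatogonia, and Ctsl (-0.75) and Dhh (-0.56) of Sertoli cells. Nr5a1 (0.90) and Scarb1 (-0.27) of Leydig cells, Ptprc (-0.45) and Cd74 (0.50) of macrophages, Hba-a1 (0.31) and Alas2 (-0.18) of blood, and Defb20 (-0.51) and Adam7 (-0.30) of the epididymis completed them. Cd74 was at 2.24 on replicate 2. The part of these cell types in the members' ratios was not tested.

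The named genes nearest to each member over all 12 arrays were found among 8041 with complete values by the root-mean-square difference of their log2 ratios. Nearest to Tnp2 were Gpsm1 (0.14), Gstm3 (0.16) and Smcp (0.17), and nearest to Prm1 were Smcp (0.25), Mtdh (0.28) and Oaz3 (0.28). Tnp2 itself was at 0.23 from Prm1, nearer than any of these 8041 genes, whereas 10 of them were nearer to Tnp2 than Prm1 was. Nearest to Tnp1 were Ubqlnl (0.28), Cypt1 (0.28) and 1700001F09Rik (0.29). Prm1 and Tnp2 were at 0.40 and 0.41 from Tnp1, with 19 and 25 genes nearer to it. In the other direction, 18 genes were nearer to Prm1 and 70 nearer to Tnp2 than Tnp1 was. The genes nearest to Prm2 were farther away than those of the other members: Oaz3 (0.61), Hmgb4 (0.62) and Mtdh (0.63). Tnp1 was at 0.63 from Prm2, with 2 of the 8041 genes nearer, Prm1 at 0.67, with 8 nearer, and Tnp2 at 0.71, with 15 nearer. In the other direction many genes were nearer than Prm2 was: 142 to Tnp1, 213 to Prm1 and 882 to Tnp2. The dye split of Prm2 in Wobbler over wildtype enters these distances.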

How the data were processed

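Each of 12 arrays compared pooled testis RNA of 2 of 3 genotypes, and the authors deposited 1 log2 ratio per spot. How spots were scanned, corrected and normalized is not given in the sources used here. A protocol in the labels also speaks of a reference pool of 6 control animals; the channel labels were followed. On each array a repeated value above 15 was read as a code and set missing (22 to 165 spots); no member held it. That 1 unit is 1 doubling was read from repeated values lying 1 apart. Usable spots numbered 18325 to 19584 per array, and the number of arrays limits the precision.

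Probes were named from the platform annotation (14030 with 1 symbol, 5 with several, 6320 with none). Probes of a symbol were averaged per array, and a feature needed values on 3 or more arrays in each comparison, which 14729 of 16255 had. All 12 arrays entered 1 linear model (limma 3.58.1, lmFit with eBayes; R 4.3.3) holding a mean for each comparison and a common dye effect, with Benjamini-Hochberg adjustment over all features within a comparison at 0.05. An SE is that of this fit. Folds are 2 to the power of the ratio's size. The fit was tested on simulated data. Genes were named by a rule: the members and their probes, the measured neighbours, and the 3 genes nearest to each member. From the lists of histone exchange, transcript control and late spermatids the rule took the 4 genes of smallest p per comparison. From each other cell type list, acrosome and round spermatid genes included, it took 2. Gsg1 and Crem were added after their values were seen. The members, lists and rule were chosen with earlier results of these data known. Alternatives changed the features, centring, scaling, dye term, filter, code, samples, weights, variance and model. Replicate numbers did not pair the arrays: 0 of 12 same-numbered pairs had deviations correlated above 0.1 (-0.03 to 0.07).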

Additional observations from a re-analysis of the deposited data

Results flagged for a closer look

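In 12 of 153 groups of 4 arrays examined, 1 array stood far from the other 3 by Dixon's criterion, where chance flags about 1 in 20. Among the members this was Prm1 in modifier over Wobbler, at -0.51 on replicate 3 and between -1.13 and -1.09 on the others. On the same array Sox30 was at -0.64 and Ddx4, a helicase of germ cells, at -0.15. In the same comparison Rpl37a was at -1.72 and Brdt at -1.73 on replicate 4, Txndc11 at 0.54 on replicate 1, and Cypt1 at 0.015 on replicate 2. In modifier over wildtype 4 genes had their lowest value on replicate 3: Ropn1 at -1.13, Syce2 at -1.27, Stag3, a cohesin of meiosis, at -0.59, and Ubqlnl at -1.66. In Wobbler over wildtype Cd74, of antigen presentation, was at 2.24 on replicate 2.

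Tnp1 differed between comparisons by the test of the difference itself: modifier over wildtype minus Wobbler over wildtype was -1.16 ± 0.18 (SE). The other members went the same way without passing, Prm2 at -1.28 ± 0.30 (SE), Prm1 at -0.85 ± 0.22 (SE) and Tnp2 at -0.76 ± 0.18 (SE).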

How the results depend on the processing

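All 4 members kept ratios below 0 in both modifier comparisons under every alternative in which their ratios were computed; the reading as channel 1 over channel 2 gave counts alone. Members called lower numbered 4 in modifier over wildtype, 1 with the comparison fitted alone, 0 read as channel 1 over channel 2, and 0 to 4 when leaving out each array. In modifier over Wobbler they numbered 3, then 0 without a dye term, 0 fitted alone, 0 read as channel 1 over channel 2, and 0 to 4 when leaving out each array. In Wobbler over wildtype all 26 alternatives gave 0. Tnp1 there, at 0.06, went to -0.0082 without replicate 2 and -0.0187 without replicate 4, and reached 0.165 without replicate 1. With the replicate block 1 member passed in modifier over Wobbler, and the block changed no other count of members. Each array had its highest correlation with its own number in 10 of 24 cases.

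Counts over all features moved more. In Wobbler over wildtype, 45 became 87 with each probe a feature, 23 with scaled arrays, 24 without a dye term, 0 fitted alone, 22 with array weights, 22 with the replicate block, 0 with 2 genotype coefficients, 0 read as channel 1 over channel 2, and 18 to 54 when leaving out each array. In modifier over wildtype, 108 became 165, 483, 46, 4, 709, 58, 224 and 0 under the same settings, 65 with a dye term per comparison, and 19 to 163 when leaving out each array. In modifier over Wobbler, 61 became 110 with each probe a feature, 7 without a dye term, 0 fitted alone, 24 with the replicate block, 207 with 2 genotype coefficients, 0 read as channel 1 over channel 2, 35 with a dye term per comparison, and 6 to 137 when leaving out each array. Fewer arrays and degrees of freedom go into the fits alone and without an array; other causes were not tested. No signal over background was used here.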
